A study of Homo sapiens with 18 samples.

Results

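Glycolysis and the response to low oxygen were followed through 40 genes chosen by symbol for their roles: genes of glucose uptake, of each step of glycolysis, of lactate production and export, and targets and sensors of the hypoxia-inducible factors (HIFs). All 40 symbols were found among the 60642 in the count tables. The libraries came from MDA-MB-231, an established human TNBC line, transfected for 48 h with 25 nM of SMART-pool siRNA, a mixture of siRNAs, against PRMT5 (siPRMT5), against CBX3, the gene of HP1γ (siHP1γ), or with a non-specific sequence (siNS), and then given 100 nM dexamethasone (Dex), a synthetic glucocorticoid, or its vehicle ethanol (Eth) for 8 h. The study asked how the glucocorticoid receptor uses the arginine methyltransferase PRMT5 and the chromatin protein HP1γ as coregulators. Each of the 6 conditions had 3 biological replicates, giving 18 libraries. Cells were grown in high-glucose medium, and no label names a low-oxygen culture.

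The 18 libraries held between 8682992 and 12472381 counts, of which the 40 genes took 1.09% to 1.40%. Levels are given in CPM, counts scaled to a common library size after TMM, in the order of replicates 1 to 3. PRMT5 mRNA was at 226, 262 and 259 CPM in siNS Eth, 244, 247 and 226 in siNS Dex, 8.37, 7.75 and 6.10 in siPRMT5 Eth, and 11.5, 10.6 and 9.39 in siPRMT5 Dex. Its Dex response was log2 0.52 in siPRMT5 cells, and the difference from siNS cells was 0.57 (edgeR adjusted p = 0.0297). PRMT5 mRNA was also lower with siHP1γ, by log2 -0.25 in Eth (edgeR adjusted p = 0.0111) and -0.35 in Dex (edgeR adjusted p = 0.00123). Those libraries held 211, 206 and 209 CPM in siHP1γ Eth, and 177, 199 and 189 in siHP1γ Dex. CBX3 mRNA was at 274, 234 and 258 CPM in siNS Eth, 220.4, 241 and 229 in siNS Dex, 9.23, 9.91 and 10.5 in siHP1γ Eth, and 15.8, 13.98 and 11.4 in siHP1γ Dex. For CBX3 the Dex response in siHP1γ cells differed from that in siNS cells by log2 0.63 (edgeR adjusted p = 0.0680). The part of these differences in the later results was not tested. All 7 markers of this line, among them VIM, CD44 and AXL, passed 1 CPM in every library, while ESR1, PGR and 6 of 7 markers of other cell types stayed under 1 CPM in every library. PECAM1 was the other one, and the 7 summed to between 1.88 and 8.26 CPM. The receptor gene ERBB2 (HER2), by contrast, passed 1 CPM in every library. Its condition means ran from 25.8 (siNS Eth) to 33.9 CPM (siNS Dex). Of 4 epithelial markers, CDH1 and GRHL2 stayed under 1 CPM in every library and ESRP1 reached at most 1.37 CPM. EPCAM passed 1 CPM in every library, with condition means from 9.06 (siNS Dex) to 12.6 CPM (siHP1γ Dex). Levels of single markers moved with the conditions. AXL was at 963 ± 46.6 CPM (mean ± SD, n = 3) in siNS Eth, 738 ± 28.3 in siHP1γ Eth and 221 ± 9.12 in siPRMT5 Eth (log2 fold change -2.13 with siPRMT5 in Eth and -2.13 in Dex). PECAM1, an endothelial marker, was at 1.29 ± 0.175 CPM in siNS Eth, 4.14 ± 0.339 in siNS Dex, 2.66 ± 0.417 in siHP1γ Eth, 4.11 ± 0.547 in siHP1γ Dex, 3.25 ± 0.480 in siPRMT5 Eth and 6.83 ± 1.25 in siPRMT5 Dex, while VWF, the other endothelial marker, stayed under 1 CPM. The part of these shifts in the results that follow was not tested. Of the 40 genes, 39 had enough counts to be tested. CA9, a membrane carbonic anhydrase widely used as a hypoxia marker, was the exception, at 0.331, 0 and 0.207 CPM in siNS Eth, 0.0883, 0.545 and 0.272 in siNS Dex, 0.530, 0.374 and 0 in siHP1γ Eth, 0.0787, 0.391 and 0.188 in siHP1γ Dex, 0.751, 0.235 and 0.60 in siPRMT5 Eth, and 0.586, 0 and 0.339 in siPRMT5 Dex, all too low to compare. Differences were tested with edgeR's quasi-likelihood test, with Benjamini-Hochberg adjustment over 15298 genes. A depletion or an interaction passed at an adjusted p under 0.05 and a Dex response at an adjusted p under 0.01 with a fold change of at least 1.5. Because RNA was taken from whole cultures, fewer cells of one state and less RNA per cell cannot be told apart.

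Glycolysis splits glucose into pyruvate in the cytosol, and cancer cells often turn most of that pyruvate into lactate, which leaves with a proton through monocarboxylate transporters. HIF α subunits are marked for destruction by oxygen-dependent prolyl hydroxylases, so they build up when oxygen is short and then raise the transcription of glucose transporters, glycolytic enzymes, pyruvate dehydrogenase kinases, mitophagy receptors and carbonic anhydrases. HIFs bind the short core ACGTG or GCGTG near many of these genes, and some targets, such as the hydroxylase EGLN3, act back on the pathway.

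In siNS Eth cells the isozymes of a step differed widely in mRNA level. Per kilobase of exon, ENO1, an enolase, reached 337 CPM and its neuronal-type isozyme ENO2 19.9. LDHA, which turns pyruvate into lactate, reached 207 CPM per kilobase and LDHB 24.1. The LDHB level is uncertain, as its pseudogene symbols held 182% of its own counts. PFKP was the highest of the phosphofructokinases at 30.8 CPM per kilobase, HK1 (55.1) stood above HK2 (31.1), and the glucose transporter SLC2A1 (30.5) above SLC2A3 (9.56). HIF1A reached 136 CPM per kilobase against 3.99 for EPAS1, the other HIF α subunit, and the lactate exporter SLC16A3 6.23 against 0.415 for SLC16A1. Of the bifunctional regulators, PFKFB3 reached 9.86 CPM per kilobase, PFKFB4 2.20 and PFKFB2 1.69. Without the division by length the order within each set was the same, except that PFKFB2 then stood above PFKFB4. The kit type and the annotation used for counting are not given, so whether division by exon length applies is not known.

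The upstream sequences of 6 genes are shown because large differences described next fell on SLC2A1, CA12 and MXI1 (siPRMT5), ADM (siHP1γ) and EGLN3 (siPRMT5 in Eth, and the largest interaction of siPRMT5 with Dex), with LDHA as a textbook HIF target for comparison. None is shown for NDRG1, the gene that Dex lowered most in siPRMT5 cells. Each run is the 250 bases before the RefSeq start on GRCh38.p14, 5′ to 3′ along the gene, and capitals mark 2 kinds of match on either strand, the HIF core (ACGTG and also GCGTG) and, apart from it, the letters AGAACA. SLC2A1 (chr1:42958869-42959118, minus strand), CA12 (chr15:63381847-63382096, minus strand), MXI1 (chr10:110207355-110207604, plus strand), ADM (chr11:10304823-10305072, plus strand), EGLN3 (chr14:33951075-33951324, minus strand) and LDHA (chr11:18394313-18394562, plus strand) read as follows.
SLC2A1: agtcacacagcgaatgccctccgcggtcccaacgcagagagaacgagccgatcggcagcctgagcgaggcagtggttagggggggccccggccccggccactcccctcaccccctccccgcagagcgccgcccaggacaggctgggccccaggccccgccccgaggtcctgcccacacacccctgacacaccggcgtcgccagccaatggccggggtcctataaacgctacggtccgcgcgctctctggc
CA12: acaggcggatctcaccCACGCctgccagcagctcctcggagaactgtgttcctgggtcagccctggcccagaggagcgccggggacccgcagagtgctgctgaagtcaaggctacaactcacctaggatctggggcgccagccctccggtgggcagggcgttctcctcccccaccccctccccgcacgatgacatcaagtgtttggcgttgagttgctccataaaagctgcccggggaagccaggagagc
MXI1: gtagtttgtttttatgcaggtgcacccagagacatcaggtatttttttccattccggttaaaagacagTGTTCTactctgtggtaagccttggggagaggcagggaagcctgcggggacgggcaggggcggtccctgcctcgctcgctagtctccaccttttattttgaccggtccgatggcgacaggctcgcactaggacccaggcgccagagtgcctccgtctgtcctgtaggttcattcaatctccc
ADM: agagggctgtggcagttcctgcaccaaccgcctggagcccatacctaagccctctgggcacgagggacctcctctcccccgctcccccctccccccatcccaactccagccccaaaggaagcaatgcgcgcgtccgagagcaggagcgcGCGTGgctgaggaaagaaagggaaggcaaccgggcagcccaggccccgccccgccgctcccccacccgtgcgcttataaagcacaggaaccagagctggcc
EGLN3: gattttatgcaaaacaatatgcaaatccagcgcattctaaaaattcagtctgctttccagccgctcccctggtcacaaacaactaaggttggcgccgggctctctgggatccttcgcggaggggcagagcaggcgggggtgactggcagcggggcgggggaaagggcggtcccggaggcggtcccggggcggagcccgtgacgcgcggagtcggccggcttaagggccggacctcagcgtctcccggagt
LDHA: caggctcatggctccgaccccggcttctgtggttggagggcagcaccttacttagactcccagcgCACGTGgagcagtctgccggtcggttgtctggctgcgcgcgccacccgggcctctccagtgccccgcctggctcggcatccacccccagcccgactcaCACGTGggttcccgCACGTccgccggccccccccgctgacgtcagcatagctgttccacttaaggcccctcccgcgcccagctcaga
Neither SLC2A1 nor EGLN3 held any of these letters in the window, CA12 held 1 core (base -234 from the start), ADM 1 (base -101) and LDHA 5, of which 4 came from 2 palindromic CACGTG runs that count on both strands. MXI1 held AGAACA, letters found in glucocorticoid receptor sites, 1 time on the opposite strand. Promoter rows were found for 34 of the 40 genes, and ACGTG or GCGTG occurred in 22 of them (64.7%) against 43.1% of 27305 promoters. ACGTG alone occurred in 14 (41.2% against 18.7%), CACGTG, which contains it, in 5 (14.7% against 6.49%), and AGAACA in 2 (5.88% against 12.4%). These counts describe letters in a window and no binding was measured.

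PRMT5 depletion raised some genes of the pathway and lowered others. Without Dex, 20 of the 39 genes tested (51.3%) differed from siNS, 13 higher and 7 lower, where 42.1% of all genes differed (20.6% higher, 21.6% lower). With Dex, 24 (61.5%) differed, 11 higher and 13 lower, against 42.4% of all genes (20.6% higher, 21.9% lower). Libraries of the conditions did not overlap for 22 of the 39 genes without Dex and 27 with Dex, beside 49.1% and 51.5% of all genes. The median log2 fold change of the 39 genes was 0.12 without Dex and -0.048 with Dex, beside 0.00048 and 0.0021 for all genes. The lists shared 14 genes, 70.0% of the first and 58.3% of the second, and all 14 kept their sign: ALDOC, BNIP3L, EGLN3, HIF1A, HK2, P4HA1, PDK1 and PGK1 were higher, and BNIP3, CA12, MXI1, NDRG1, PFKM and SLC2A1 were lower. The calls of BNIP3 and PFKM in Eth were lost with no filter on low counts.

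**Figure D1:**
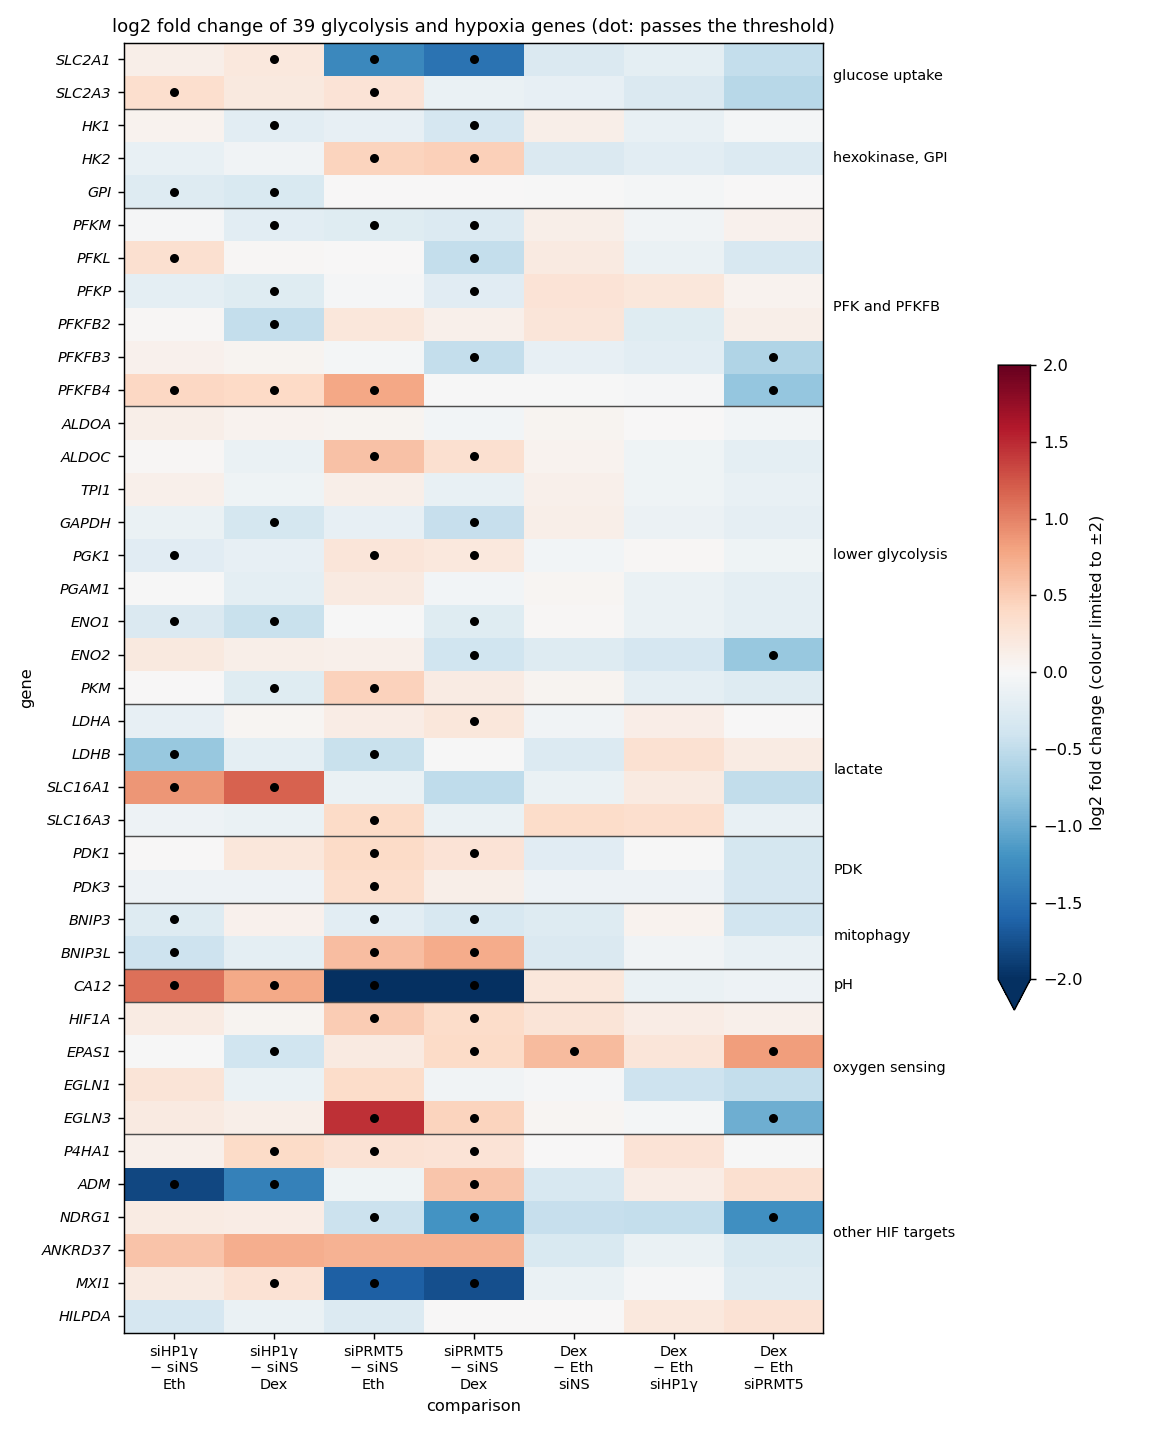
Heat map of the log2 fold change of the 39 tested genes, grouped by role, in 7 comparisons, with the genes in rows, the comparisons in columns, and a black dot where the gene passed the threshold. Among the strongest cells are CA12, MXI1 and SLC2A1 (lower) and EGLN3 in Eth (higher) with siPRMT5 and ADM with siHP1γ (lower), and the 3 Dex columns on the right hold 7 dots, 6 of them with siPRMT5.

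Of the glucose transporters, SLC2A1 was lower in siPRMT5 cells in both states and SLC2A3 was not. SLC2A1 (GLUT1), the main basal glucose transporter of most cultured cells, stood at 198, 199.96 and 207 CPM in siNS Eth, 171, 165 and 157 in siNS Dex, 219, 211 and 224 in siHP1γ Eth, 193, 187 and 191 in siHP1γ Dex, 80.7, 80.8 and 84.8 in siPRMT5 Eth, and 58.4, 60.4 and 57.7 in siPRMT5 Dex. The 6 siPRMT5 libraries lay below all 12 others, without overlap. SLC2A1 mRNA was lower with siPRMT5 in Eth (log2 fold change -1.30, SE 0.062, adjusted p = 1.58e-14) and in Dex (log2 fold change -1.48, SE 0.063, adjusted p = 1.62e-15). The high-affinity transporter SLC2A3 (GLUT3) did not follow, at 69.0, 65.4 and 73.6 CPM in siNS Eth, 66.7, 54.6 and 64.8 in siNS Dex, 87.0, 87.0 and 87.3 in siHP1γ Eth, 79.7, 64.3 and 70.2 in siHP1γ Dex, 78.6, 83.0 and 88.6 in siPRMT5 Eth, and 56.6, 55.2 and 57.9 in siPRMT5 Dex. It was higher with siPRMT5 in Eth (log2 fold change 0.27, SE 0.085, adjusted p = 0.013) and had a log2 fold change of -0.14 (SE 0.086, adjusted p = 0.209) in Dex, where the groups overlapped. The ratio of SLC2A1 to SLC2A3 was thus 2.91 ± 0.128 in siNS Eth and 0.986 ± 0.0368 in siPRMT5 Eth. The SLC2A3 call in Eth was lost without siNS Eth replicate 2 (log2 fold change 0.22) or siPRMT5 Eth replicate 3 (0.22).

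Of the 9 enzymes of hexose phosphorylation and the phosphofructokinase step, HK2 was the 1 that was higher in both states. HK2, the hexokinase typical of fast-growing tumours, was at 184, 186 and 182 CPM in siNS Eth, 147, 154 and 148 in siNS Dex, 161, 163 and 175 in siHP1γ Eth, 145, 146 and 138 in siHP1γ Dex, 229, 244 and 279 in siPRMT5 Eth, and 204, 213 and 206 in siPRMT5 Dex, and every siPRMT5 library exceeded every siNS and siHP1γ library. Its log2 fold change was 0.45 in Eth (SE 0.068, adjusted p = 7.21e-06) and 0.47 in Dex (SE 0.068, adjusted p = 3.75e-06). HK1, the housekeeping hexokinase, was lower in Dex (-0.33, adjusted p = 4.81e-04), and PFKM, PFKL and PFKP were each lower in Dex (log2 fold changes -0.27, -0.48 and -0.22). PFKFB4, a bifunctional enzyme that makes and breaks down the allosteric activator of phosphofructokinase, was at 12.03, 14.4 and 13.9 CPM in siNS Eth, 13.2, 13.9 and 13.1 in siNS Dex, 15.6, 18.5 and 19.7 in siHP1γ Eth, 17.6, 16.1 and 19.4 in siHP1γ Dex, 24.8, 21.7 and 22.2 in siPRMT5 Eth, and 13.6, 11.4 and 15.4 in siPRMT5 Dex. The siPRMT5 Eth libraries were above all others for this gene, but in Dex the siPRMT5 and siNS libraries overlapped (log2 fold change 0.77, SE 0.12, adjusted p = 1.06e-05 in Eth and -0.005, SE 0.12, adjusted p = 0.979 in Dex). PFKFB3, the isozyme with the strongest kinase activity, showed the other order, with 58.3, 63.3 and 59.2 CPM in siNS Eth, 56.8, 52.7 and 51.4 in siNS Dex, 61.7, 62.0 and 69.1 in siHP1γ Eth, 56.3, 56.3 and 54.2 in siHP1γ Dex, 59.3, 59.6 and 57.5 in siPRMT5 Eth, and 39.4, 37.9 and 38.6 in siPRMT5 Dex. It was close to siNS in Eth (-0.036, SE 0.072, adjusted p = 0.728, groups overlapping) and lower in Dex (log2 fold change -0.47, SE 0.074, adjusted p = 1.10e-05). PFKFB2 did not pass in either state (0.23 and 0.10). The PFKP call was lost without siNS Dex replicate 2 (-0.20) or siPRMT5 Dex replicate 1 (-0.21) or 2 (-0.19).

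In lower glycolysis 3 of 9 genes were higher and none lower in Eth, and 2 were higher and 3 lower in Dex. PGK1, which makes the first ATP of this stretch and is a classical HIF target, was at 650.3, 699 and 678 CPM in siNS Eth, 631, 699.9 and 626 in siNS Dex, 587, 571 and 574 in siHP1γ Eth, 587, 595 and 572 in siHP1γ Dex, 808, 795 and 801 in siPRMT5 Eth, and 751, 800.3 and 716 in siPRMT5 Dex. All 3 siPRMT5 libraries exceeded the siNS libraries in each state, with a log2 fold change of 0.25 in Eth (SE 0.060, adjusted p = 0.00169) and 0.21 in Dex (SE 0.060, adjusted p = 0.00562). ALDOC, the brain-type aldolase, was at 28.9, 34.0 and 32.6 CPM in siNS Eth, 31.0, 34.0 and 35.4 in siNS Dex, 36.6, 32.6 and 28.2 in siHP1γ Eth, 26.4, 33.3 and 31.6 in siHP1γ Dex, 50.4, 51.8 and 42.1 in siPRMT5 Eth, and 46.8, 34.7 and 44.6 in siPRMT5 Dex. It was higher in Eth without overlap (log2 fold change 0.59, SE 0.12, adjusted p = 2.38e-04) and higher in Dex with overlap (log2 fold change 0.32, SE 0.12, adjusted p = 0.0279), a call lost without siNS Dex replicate 1 (0.28) or siPRMT5 Dex replicate 1 (0.25) or 3 (0.29). PKM, pyruvate kinase, was higher in Eth (0.47, adjusted p = 1.02e-05) and did not pass in Dex (0.16, adjusted p = 0.0831), and the difference of these effects did not pass (-0.31, adjusted p = 0.0888). GAPDH (-0.46), ENO1 (-0.24) and ENO2 (-0.39) were lower in Dex. ENO1 lost its call without siNS Dex replicate 2 (-0.18) or siPRMT5 Dex replicate 2 (-0.19). ALDOA, TPI1 and PGAM1 passed in neither state, with log2 fold changes between -0.14 and 0.18.

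Genes of lactate production and export differed by small steps with siPRMT5. LDHA mRNA was at 1331, 1173 and 1246 CPM in siNS Eth, 1199, 1239 and 1139 in siNS Dex, 1077, 1106 and 1159 in siHP1γ Eth, 1358, 1199 and 1116 in siHP1γ Dex, 1377, 1321 and 1453 in siPRMT5 Eth, and 1420.5, 1515 and 1260.3 in siPRMT5 Dex, and the 18 libraries spanned a narrow range. With siPRMT5 it was higher in Dex (log2 fold change 0.23, SE 0.075, adjusted p = 0.015), a call lost without siNS Dex replicate 3 (0.20) or siPRMT5 Dex replicate 2 (0.17), while in Eth the groups overlapped (0.15, SE 0.075, adjusted p = 0.121). LDHB, whose isozyme favours pyruvate formation, was lower in Eth (-0.45, adjusted p = 0.00347), and at -0.28 (adjusted p = 0.0023) with the counts of its pseudogene symbols added. SLC16A3 (MCT4), the exporter of glycolytic cells, was higher in Eth (0.38, adjusted p = 0.00743), a call lost without siNS Eth replicate 1 (0.30). SLC16A1 did not pass (-0.13 and -0.50). PDK1 and PDK3, which switch off pyruvate dehydrogenase, were both higher in Eth (0.39 and 0.36), and PDK1 also in Dex (0.27) except without siPRMT5 Dex replicate 2 (0.22).

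The mitophagy receptors BNIP3 and BNIP3L, paralogs that are both classical HIF targets, went opposite ways. BNIP3L (NIX) was at 179, 144 and 158 CPM in siNS Eth, 126, 131 and 138 in siNS Dex, 118, 121 and 121 in siHP1γ Eth, 133, 108 and 102 in siHP1γ Dex, 229.8, 233 and 272 in siPRMT5 Eth, and 217, 240.2 and 207 in siPRMT5 Dex, with the 6 siPRMT5 libraries above all 12 others. It was higher by log2 0.61 in Eth (SE 0.092, adjusted p = 6.26e-06) and 0.75 in Dex (SE 0.092, adjusted p = 3.38e-07). BNIP3 was lower, with log2 fold changes of -0.21 (adjusted p = 0.0122) and -0.32 (adjusted p = 3.06e-04). The ratio of BNIP3L to BNIP3 was 0.778 ± 0.0788 in siNS Eth, 1.37 ± 0.120 in siPRMT5 Eth and 1.61 ± 0.0482 in siPRMT5 Dex. BNIP3 has 39 pseudogene symbols in the tables whose counts summed to 68.5% of its own, so its level is uncertain. With those counts added the log2 fold change was -0.15 in Eth (adjusted p = 0.0369) and -0.29 in Dex (adjusted p = 0.000262).

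CA12, a membrane carbonic anhydrase that helps to set the pH around cells, held the largest difference of all 39 genes. It stood at 14.8, 13.9 and 15.1 CPM in siNS Eth, 17.8, 17.1 and 16.1 in siNS Dex, 33.8, 31.7 and 29.0 in siHP1γ Eth, 27.2, 28.2 and 30.9 in siHP1γ Dex, 2.68, 2.58 and 2.80 in siPRMT5 Eth, and 2.44, 2.38 and 2.72 in siPRMT5 Dex. The 3 siRNAs formed separate levels with no overlap, siHP1γ highest and siPRMT5 lowest. With siPRMT5 the log2 fold change was -2.43 in Eth (SE 0.14, adjusted p = 5.05e-13) and -2.76 in Dex (SE 0.14, adjusted p = 1.93e-14). MXI1, a MAX-binding transcriptional repressor and HIF target, was at 56.4, 46.3 and 53.1 CPM in siNS Eth, 50.2, 47.9 and 43.98 in siNS Dex, 55.8, 59.9 and 60.8 in siHP1γ Eth, 61.2, 55.3 and 56.3 in siHP1γ Dex, 17.0, 15.5 and 17.7 in siPRMT5 Eth, and 16.3, 12.3 and 13.7 in siPRMT5 Dex. Again the siPRMT5 libraries lay below all others, with log2 fold changes of -1.63 (SE 0.10, adjusted p = 2.53e-12) and -1.75 (SE 0.10, adjusted p = 7.20e-13). Their upstream sequences, printed with the others, had a single HIF core (CA12) and none (MXI1).

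**Figure D2:**
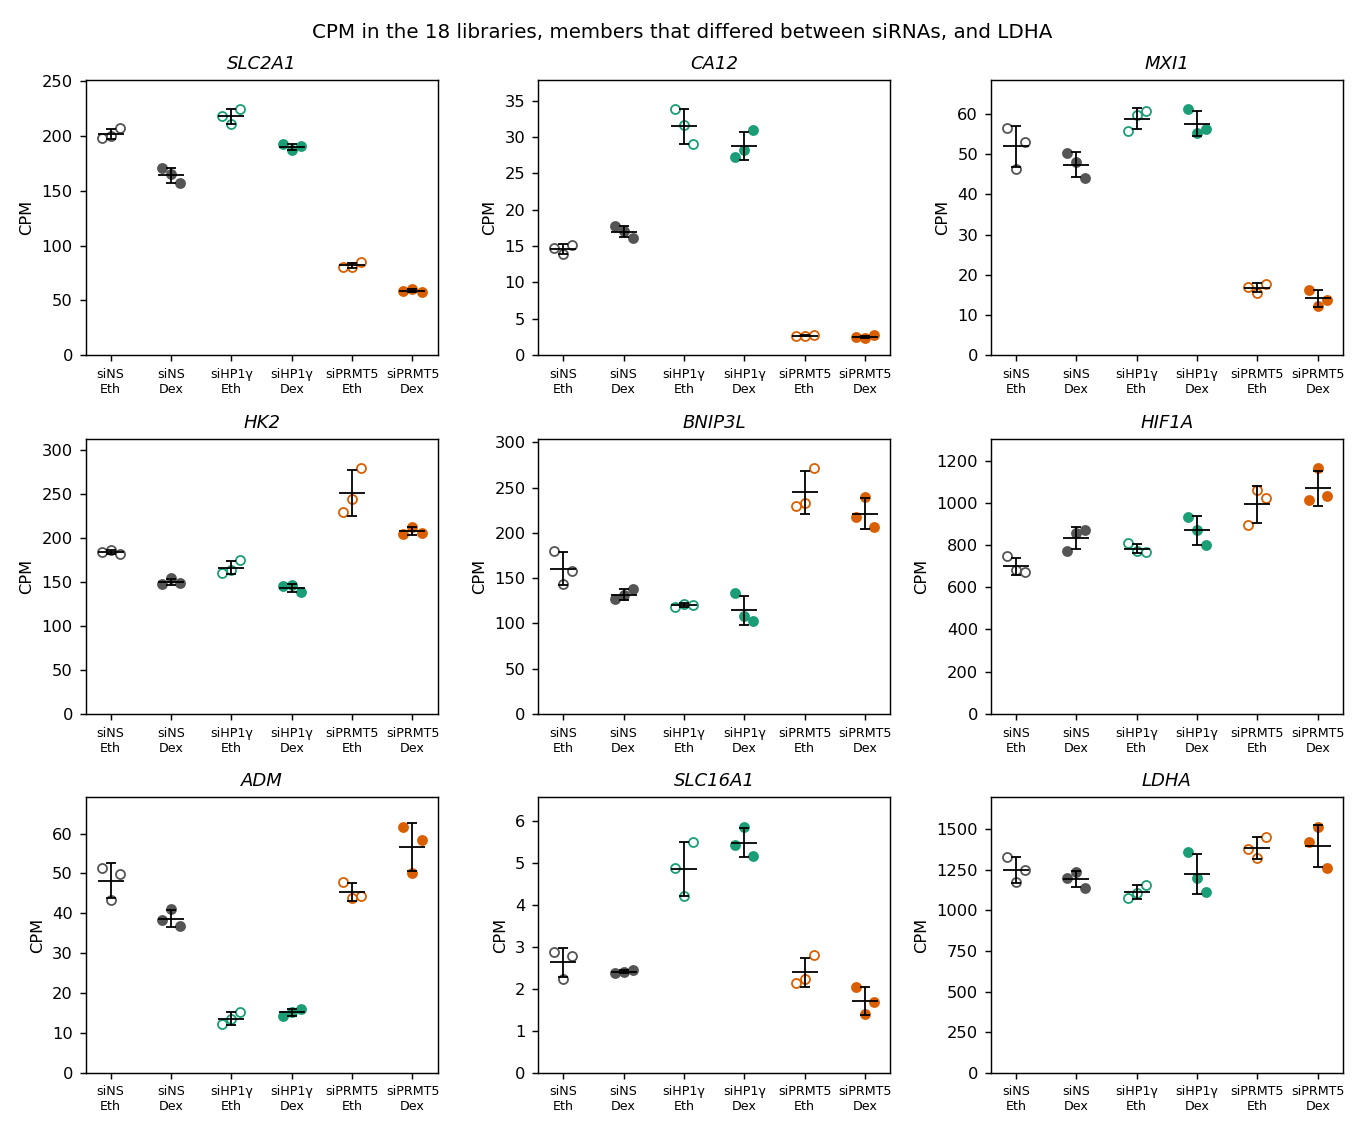
CPM (vertical axes, from 0) in each library for 9 genes, by condition (horizontal axes), with open circles for Eth, filled circles for Dex, and black bars for the mean ± SD of 3 libraries. The siPRMT5 libraries are the lowest for SLC2A1, CA12 and MXI1 and the highest for HK2 and BNIP3L, the siHP1γ libraries are the lowest for ADM and the highest for CA12 and SLC16A1, and LDHA differs little between conditions.

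HIF1A, EPAS1 and the hydroxylases EGLN1 and EGLN3 were each higher or did not pass with siPRMT5, and none was lower. HIF1A mRNA was at 746, 681 and 672 CPM in siNS Eth, 772, 855 and 873 in siNS Dex, 809.7, 771 and 769 in siHP1γ Eth, 934, 871 and 801 in siHP1γ Dex, 894, 1061 and 1025 in siPRMT5 Eth, and 1011, 1164 and 1032 in siPRMT5 Dex. The siPRMT5 libraries exceeded the siNS libraries in each state (log2 fold change 0.51, SE 0.076, adjusted p = 6.23e-06 in Eth and log2 fold change 0.36, SE 0.076, adjusted p = 3.80e-04 in Dex). EGLN3, the prolyl hydroxylase that HIF itself induces, was at 8.28, 6.83 and 8.08 CPM in siNS Eth, 8.48, 7.95 and 7.25 in siNS Dex, 7.74, 8.32 and 10.1 in siHP1γ Eth, 9.37, 8.12 and 8.09 in siHP1γ Dex, 20.5, 20.3 and 22.9 in siPRMT5 Eth, and 10.6, 11.3 and 10.4 in siPRMT5 Dex. The 3 siPRMT5 Eth libraries were the highest of the 18, at log2 1.46 above siNS (SE 0.12, adjusted p = 5.34e-10), and in Dex the difference was 0.45 (SE 0.13, adjusted p = 0.00659). EGLN1, the main hydroxylase in normal oxygen, did not pass (0.37, adjusted p = 0.0601). Protein levels and hydroxylase activity were not measured in these files.

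Among the remaining HIF targets, P4HA1, a subunit of the collagen prolyl hydroxylase, was higher with siPRMT5 in both states. Its libraries held 92.7, 85.3 and 92.0 CPM in siNS Eth, 89.5, 90.3 and 90.5 in siNS Dex, 91.6, 95.7 and 104 in siHP1γ Eth, 126, 118 and 107 in siHP1γ Dex, 111, 99.1 and 119.8 in siPRMT5 Eth, and 112, 118 and 96.8 in siPRMT5 Dex, and the siPRMT5 libraries exceeded the siNS libraries in each state (log2 fold change 0.29, adjusted p = 0.00637, and 0.28, adjusted p = 0.00893). These calls were lost without siPRMT5 Eth replicate 3 (0.23) and siPRMT5 Dex replicate 2 (0.22). NDRG1, a gene induced by hypoxia and cell stress, was at 213, 252 and 229 CPM in siNS Eth, 162, 168 and 173 in siNS Dex, 263, 261 and 253 in siHP1γ Eth, 174, 189 and 195 in siHP1γ Dex, 185, 171 and 160.3 in siPRMT5 Eth, and 74.1, 73.0 and 72.8 in siPRMT5 Dex. The siPRMT5 Dex libraries were the lowest of all, with a log2 fold change of -1.20 against siNS Dex (SE 0.073, adjusted p = 1.31e-12), and in Eth the log2 fold change was -0.43 (SE 0.070, adjusted p = 2.15e-05). ADM, the precursor of the vasodilator peptide adrenomedullin, was higher with siPRMT5 in Dex only (log2 fold change 0.55, SE 0.092, adjusted p = 2.69e-05, against -0.085, adjusted p = 0.496 in Eth).

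HP1γ depletion lowered some genes of the pathway, among them ADM, and raised others, among them CA12 and SLC16A1. These values share the siNS libraries with those of PRMT5 depletion. Without Dex 12 of 39 (30.8%) differed from siNS, 5 higher and 7 lower, a share near the 31.8% of all genes (16.5% higher, 15.2% lower). With Dex 16 (41.0%) differed, 6 higher and 10 lower, beside 24.0% (11.7% higher, 12.3% lower). Of these, 6 of 12 and 6 of 16 were the same genes and passed in both: CA12, PFKFB4 and SLC16A1 higher, and ADM, ENO1 and GPI lower. Libraries did not overlap for 20 genes without Dex and 22 with Dex, beside 45.5% and 36.9% of all genes. The split of the small changes depended on scaling. With library size in place of TMM the split was 9 higher and 7 lower without Dex and 10 higher and 5 lower with Dex, and the median of all genes then moved from 0.013 to 0.069 and from 0.0049 to 0.086 on the log2 scale. In this condition siHP1γ Dex replicate 1 differed more from its fellow replicates than any other library did, and without it 11 genes passed with Dex (5 higher, 6 lower), as HK1, PFKM, PFKP, GAPDH, PKM and MXI1 lost their calls (log2 fold changes -0.13, -0.16, -0.15, -0.24, -0.16 and 0.24). The count was also 11 without siNS Dex replicate 2 (5 higher, 6 lower) and without siNS Dex replicate 3 (3 higher, 8 lower), and the first 5 of those 6 genes missed the threshold with library size in place of TMM as well.

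ADM was the gene lowered most. Its libraries held 51.4, 43.2 and 49.8 CPM in siNS Eth, 38.3, 41.0 and 36.7 in siNS Dex, 12.2, 13.4 and 15.2 in siHP1γ Eth, 14.2, 15.4 and 15.9 in siHP1γ Dex, 47.9, 43.9 and 44.3 in siPRMT5 Eth, and 61.7, 50.1 and 58.3 in siPRMT5 Dex, so that the 6 siHP1γ libraries lay well below all 12 others. The log2 fold change was -1.82 in Eth (SE 0.10, adjusted p = 2.49e-12) and -1.35 in Dex (SE 0.10, adjusted p = 4.02e-10). CA12, which siPRMT5 lowered, was higher with siHP1γ by log2 1.11 (SE 0.10, adjusted p = 2.69e-09) and 0.76 (SE 0.093, adjusted p = 9.70e-07). SLC16A1 (MCT1), a lactate carrier that works in both directions, was scarce, at 2.87, 2.24 and 2.80 CPM in siNS Eth, 2.38, 2.397 and 2.45 in siNS Dex, 4.88, 4.21 and 5.49 in siHP1γ Eth, 5.43, 5.87 and 5.17 in siHP1γ Dex, 2.15, 2.23 and 2.80 in siPRMT5 Eth, and 2.05, 1.40 and 1.70 in siPRMT5 Dex. The siHP1γ libraries nonetheless all exceeded the others, with a log2 fold change of 0.88 (SE 0.19, adjusted p = 7.88e-04) in Eth and 1.18 (SE 0.18, adjusted p = 2.74e-05) in Dex. These 3 genes kept their calls under every setting tried.

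Some glycolytic enzymes were lower with siHP1γ by smaller steps, ENO1 and GPI in both states. ENO1 was at 1564, 1925 and 1787 CPM in siNS Eth, 1707, 1911 and 1747 in siNS Dex, 1471, 1449 and 1394 in siHP1γ Eth, 1154, 1384 and 1413 in siHP1γ Dex, 1753, 1889 and 1602 in siPRMT5 Eth, and 1557, 1425 and 1576 in siPRMT5 Dex. The siHP1γ and siNS libraries did not overlap in either state, with log2 fold changes of -0.29 (SE 0.081, adjusted p = 0.00781) and -0.44 (SE 0.081, adjusted p = 2.33e-04); the call in Eth was lost without siNS Eth replicate 2 (-0.23). GPI, the isomerase after hexokinase, was lower in both states (log2 fold change -0.26 and -0.30, adjusted p = 0.00782 and 0.00377), and PGK1 was lower in Eth (-0.23, adjusted p = 0.00524). LDHB was at 86.3, 61.9 and 67.2 CPM in siNS Eth, 67.8, 57.4 and 52.2 in siNS Dex, 46.1, 43.5 and 37.2 in siHP1γ Eth, 53.6, 48.5 and 53.5 in siHP1γ Dex, 57.3, 46.7 and 53.7 in siPRMT5 Eth, and 65.2, 51.5 and 59.8 in siPRMT5 Dex, lower with siHP1γ in Eth (log2 fold change -0.76, SE 0.12, adjusted p = 2.32e-05) and overlapping siNS in Dex (-0.19, adjusted p = 0.262). Pseudogene symbols of LDHB held 182% of its own counts, so this level is uncertain, and with those counts added the log2 fold change was -0.45 in Eth (adjusted p = 1.76e-05) and -0.26 in Dex (adjusted p = 0.00632). LDHA overlapped siNS in Dex and did not pass in Eth (-0.17, SE 0.075, adjusted p = 0.0957).

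Of the regulators of phosphofructokinase, PFKFB4 was higher with siHP1γ in both states (log2 fold change 0.42, SE 0.12, adjusted p = 0.00967 in Eth and log2 fold change 0.40, SE 0.12, adjusted p = 0.0152 in Dex), but each call was lost without either of 2 libraries (siNS Eth replicate 1 and siHP1γ Eth replicate 3, at 0.34 each, and siNS Dex replicate 3, at 0.38, and siHP1γ Dex replicate 3, at 0.34). PFKFB2, the isozyme known from heart, was at 19.0, 14.9 and 17.7 CPM in siNS Eth, 21.7, 18.3 and 21.0 in siNS Dex, 17.5, 18.4 and 16.6 in siHP1γ Eth, 15.5, 13.98 and 14.7 in siHP1γ Dex, 19.3, 21.0 and 20.1 in siPRMT5 Eth, and 19.9, 24.7 and 20.6 in siPRMT5 Dex. It was lower in Dex (log2 fold change -0.47, SE 0.11, adjusted p = 0.00268) and overlapped siNS in Eth (0.027). SLC2A3, whose libraries are given with the glucose transporters, was higher in Eth (log2 fold change 0.33, SE 0.084, adjusted p = 0.00393), and SLC2A1 in Dex (log2 fold change 0.21, SE 0.059, adjusted p = 0.0104). The SLC2A1 call was lost without siNS Dex replicate 3 (0.18), with no filter on low counts and in a fit of the compared conditions only. PFKL passed in Eth (0.32, adjusted p = 0.048), but lost the call in 14 of the 18 fits that left out 1 library. P4HA1 was higher with siHP1γ in Dex, its 3 libraries above those of siNS Dex (log2 fold change 0.38, SE 0.083, adjusted p = 0.0014), a call that held under every setting tried, and overlapped siNS in Eth (0.11, adjusted p = 0.346). BNIP3L and BNIP3 were both lower in Eth (-0.42 and -0.25) and neither passed in Dex. HIF1A, EGLN1, EGLN3, HK2, LDHA, NDRG1, PDK1 and PDK3 passed in neither state with siHP1γ.

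Compared directly, the depletions gave different levels for 24 of 39 genes (61.5%) in Eth (16 higher and 8 lower with siPRMT5) and 24 (61.5%) in Dex (13 higher, 11 lower), where 48.4% and 49.9% of all genes differed. Libraries did not overlap for 29 and 23 genes, beside 56.4% and 52.1% of all genes. CA12 showed the largest gap, at log2 -3.54 (SE 0.13, adjusted p = 3.69e-17) in Eth and -3.52 (SE 0.13, adjusted p = 4.54e-17) in Dex. MXI1 (-1.81 and -2.03), SLC2A1 (-1.41 and -1.69) and SLC16A1 (-1.01 and -1.68) were likewise lower with siPRMT5. Higher with siPRMT5 were ADM (1.73 and 1.90), BNIP3L (1.03 and 0.95) and HK2 (0.59 and 0.54). These comparisons share their siPRMT5 and siHP1γ libraries with the comparisons against siNS, so they are a reading of the same values side by side.

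In siNS cells the share of these genes that passed with Dex was close to that of all genes. EPAS1, which encodes the HIF α subunit best known from endothelium, was the 1 of 39 (2.56%) that passed, where 2.71% of all genes did (1.65% higher, 1.06% lower). It was at 29.4, 31.8 and 26.2 CPM in siNS Eth, 47.0, 39.98 and 48.4 in siNS Dex, 27.6, 28.7 and 30.8 in siHP1γ Eth, 30.9, 36.7 and 35.9 in siHP1γ Dex, 32.4, 31.1 and 35.0 in siPRMT5 Eth, and 55.8, 58.4 and 62.8 in siPRMT5 Dex. Dex libraries exceeded Eth libraries without overlap with every siRNA, though only just in siHP1γ cells (lowest Dex library 30.86, highest Eth library 30.80 CPM). The log2 fold change was 0.63 (SE 0.10, adjusted p = 3.49e-05) in siNS cells and 0.84 (SE 0.094, adjusted p = 1.61e-07) in siPRMT5 cells. In siHP1γ cells it was 0.24 (SE 0.10, adjusted p = 0.169), and the difference from siNS cells was -0.39 (SE 0.14, adjusted p = 0.153) and did not pass. Without siNS Eth replicate 3 or siNS Dex replicate 3 the change in siNS cells was under the fold limit (0.56 and 0.58). With Dex, EPAS1 was lower in siHP1γ than in siNS cells (log2 fold change -0.39, SE 0.094, adjusted p = 0.00284) and higher in siPRMT5 cells (log2 fold change 0.38, SE 0.091, adjusted p = 0.0013), values that share the siNS Dex libraries.

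Without the fold limit, 10 of the 39 genes had an adjusted p under 0.05 in siNS cells, beside 9.16% of all genes (4.88% higher, 4.28% lower). NDRG1 (-0.46, adjusted p = 3.16e-05), ADM (-0.32), HK2 (-0.30), SLC2A1 (-0.30), BNIP3 (-0.27) and ENO2 (-0.26) were lower with Dex, and HIF1A (0.25), PFKP (0.28), SLC16A3 (0.37) and EPAS1 higher. In siHP1γ cells none of the 39 genes passed by edgeR or by DESeq2, beside 1.67% of all genes (1.01% higher, 0.660% lower). Of the 39, 15 had an unadjusted p under 0.05 in siHP1γ cells. The share of all genes at that level was not counted, so the 15 cannot be read as a response of these genes. NDRG1 (-0.48, adjusted p = 2.88e-05), ENO2 (-0.34), SLC2A3 (-0.28) and SLC2A1 (-0.20) had an adjusted p under 0.05 there, all lower and none by 1.5-fold, beside 5.55% of all genes (2.44% higher, 3.10% lower).

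**Figure D3:**
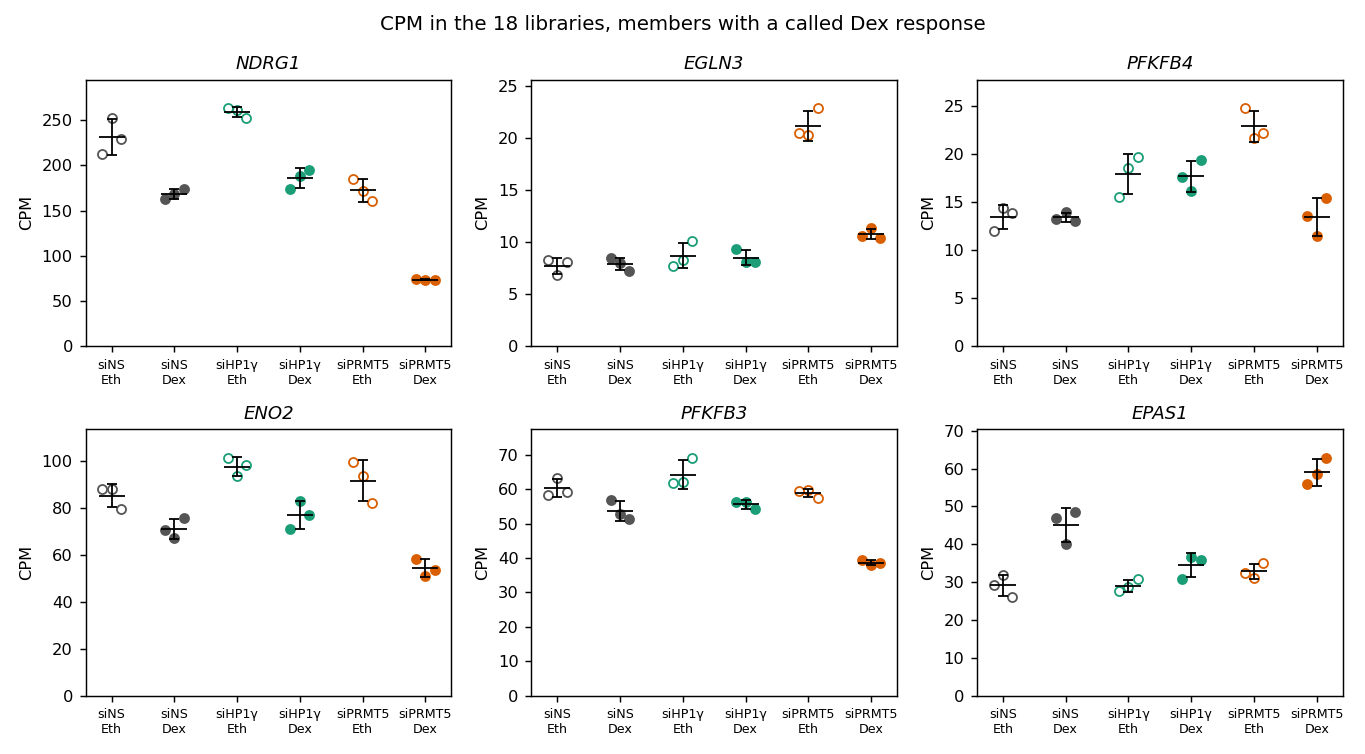
CPM (vertical axes, from 0) in each library for the 6 genes with a Dex response past the threshold in any cells, by condition (horizontal axes), with open circles for Eth, filled circles for Dex, and black bars for the mean ± SD of 3 libraries. Within siPRMT5 cells the Dex libraries lie below the Eth libraries for NDRG1, EGLN3, PFKFB4, ENO2 and PFKFB3 and above them for EPAS1.

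In siPRMT5 cells Dex lowered 5 of 39 genes and raised 1 (15.4% in all), where 5.44% of all genes passed (2.69% higher, 2.75% lower). The 5 were NDRG1 (log2 fold change -1.23, SE 0.073, adjusted p = 1.04e-12), EGLN3 (log2 fold change -0.98, SE 0.12, adjusted p = 4.59e-07), PFKFB4 (log2 fold change -0.78, SE 0.12, adjusted p = 2.10e-05), ENO2 (log2 fold change -0.76, SE 0.085, adjusted p = 1.62e-07) and PFKFB3 (log2 fold change -0.61, SE 0.074, adjusted p = 7.89e-07), and EPAS1 was the 1 that rose. NDRG1 went from 185, 171 and 160.3 CPM in Eth to 74.1, 73.0 and 72.8 in Dex, and EGLN3 from 20.5, 20.3 and 22.9 to 10.6, 11.3 and 10.4. ENO2, the neuronal-type enolase, was at 87.8, 88.1 and 79.3 CPM in siNS Eth, 70.4, 67.0 and 75.6 in siNS Dex, 101, 93.3 and 98.0 in siHP1γ Eth, 70.8, 82.9 and 76.9 in siHP1γ Dex, 99.3, 93.3 and 81.9 in siPRMT5 Eth, and 58.3, 50.8 and 53.5 in siPRMT5 Dex, and the siPRMT5 Dex libraries were the lowest of the 18. Dex and Eth libraries did not overlap for 19 genes in siPRMT5 cells, 15 in siNS cells and 14 in siHP1γ cells, beside 28.7%, 27.9% and 21.8% of all genes. A log2 fold change below 0 was found for 29 of the 39 genes in siPRMT5 cells, 20 in siNS cells and 26 in siHP1γ cells, and the median was -0.19, -0.0026 and -0.072, beside -0.00093, 0.0036 and -0.0017 for all genes. Dropping the fold limit added, among others, SLC2A3 (-0.56), SLC2A1 (-0.48), PDK1 (-0.35) and PDK3 (-0.34). Then 15 of the 39 genes had an adjusted p under 0.05, beside 16.0% of all genes (7.52% higher, 8.48% lower).

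The difference between the Dex responses was then tested as an interaction. For siPRMT5 against siNS cells 6 of 39 genes (15.4%) passed, 5 lower and 1 higher, where 3.80% of all genes did (1.58% higher, 2.23% lower). EGLN3 differed most, at -1.01 (SE 0.18, adjusted p = 0.00184), beside a Dex response of 0.033 (SE 0.14) in siNS cells. PFKFB4 (-0.77, SE 0.17, adjusted p = 0.0103) and NDRG1 (-0.77, SE 0.10, adjusted p = 6.36e-05) followed. ENO2 (-0.50, adjusted p = 0.0163) and PFKFB3 (-0.44, adjusted p = 0.0153) passed as well. ADM was the 1 in the other direction (0.64, SE 0.13, adjusted p = 0.00564): it had a log2 fold change of -0.32 with Dex in siNS cells and 0.32 in siPRMT5 cells. ENO2 lost its call without siNS Eth replicate 3 (-0.45), siNS Dex replicate 3 (-0.44), siPRMT5 Eth replicate 1 (-0.43) or siPRMT5 Dex replicate 2 (-0.44), and PFKFB3 without siNS Eth replicate 1 (-0.40), siNS Dex replicate 1 (-0.38) or siPRMT5 Dex replicate 2 (-0.42). In all, 10 genes passed without siHP1γ Dex replicate 1 and 4 without siPRMT5 Dex replicate 2.

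**Figure D4:**
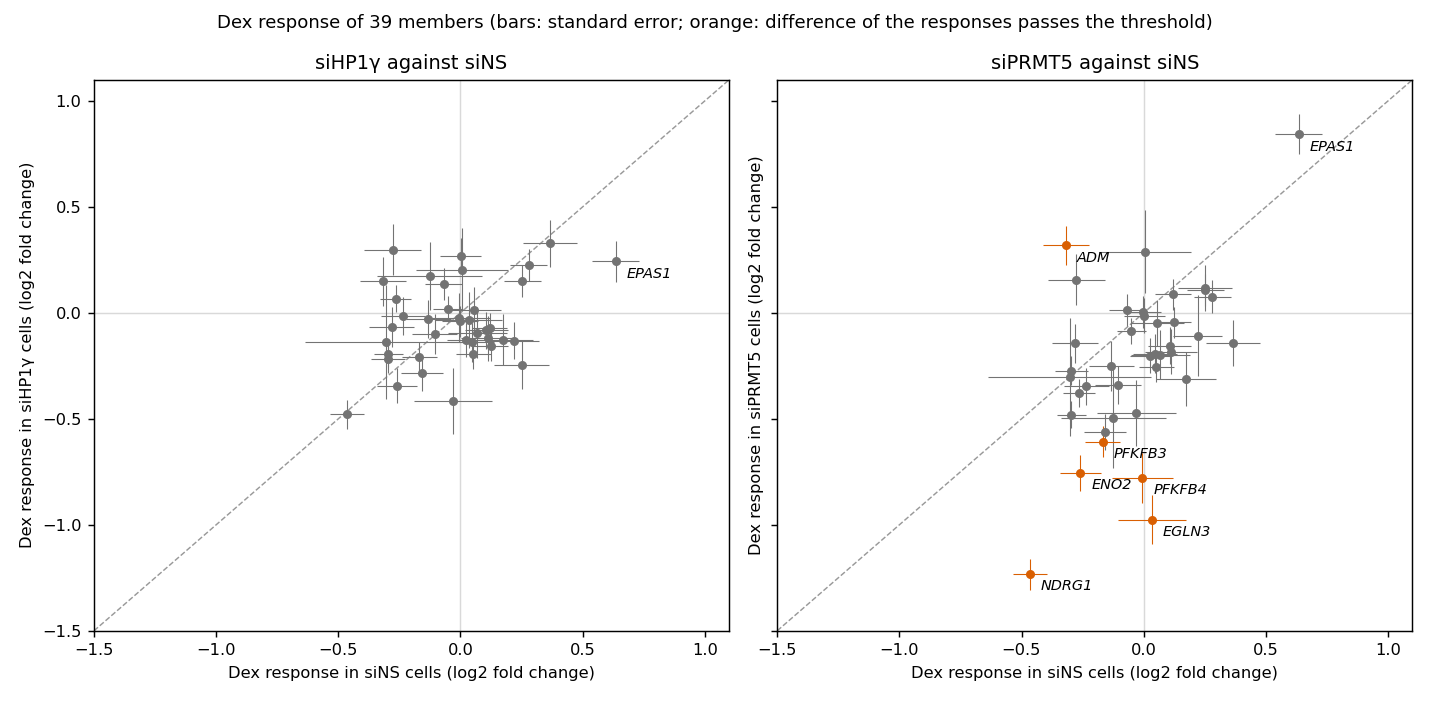
Dex response (log2 fold change) of the 39 genes in siHP1γ cells (left, vertical axis) and in siPRMT5 cells (right, vertical axis) against siNS cells (horizontal axes), with standard errors as bars, a dashed line where the responses are equal, and orange points where the interaction passed. On the right EGLN3, PFKFB4, NDRG1, ENO2 and PFKFB3 lie below the line and ADM above it, and on the left no point is orange.

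For siHP1γ against siNS cells edgeR passed 0 of 39 genes, where 0.399% of all genes passed (0.118% higher, 0.281% lower). An unadjusted p under 0.05 was found for 9 of the 39. The share of all genes at that level was not counted, so the 9 cannot be read as a difference of these genes. DESeq2 passed 2, LDHB (edgeR log2 difference 0.58, SE 0.17, adjusted p = 0.103) and BNIP3 (0.33, SE 0.092, adjusted p = 0.0939), both with pseudogenes that hold many counts. With those counts added the difference for LDHB was 0.19 (adjusted p = 0.319) and for BNIP3 0.28 (adjusted p = 0.109) by edgeR. For EGLN3 the difference was -0.066 (SE 0.19) and for NDRG1 -0.015 (SE 0.10).

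ALDOA, TPI1, PGAM1, EGLN1, ANKRD37 and HILPDA passed in none of the 11 comparisons. Counting limits touch several of them: the annotation has another gene over 55.8% of the exon bases of EGLN1, 54.2% of ALDOA and 40.3% of ANKRD37, and TPI1 has pseudogene symbols with 52.7% of its own counts. ANKRD37, an ankyrin-repeat HIF target, was at 2.01 ± 0.545 CPM in siNS Eth and 3.26 ± 1.58 in siPRMT5 Eth (mean ± SD, n = 3), with a log2 fold change of 0.69 (SE 0.30, adjusted p = 0.0631). HILPDA, a lipid-droplet protein induced by hypoxia, was at 12.4 ± 1.84 and 10.2 ± 2.66 CPM (-0.28, SE 0.20, adjusted p = 0.277).

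Of 76 further genes of the pathway that are not among the 40, 75 were tested. With siPRMT5, 23 were higher and 11 lower in Eth, beside 20.6% and 21.6% of all genes. In Dex 25 were higher and 13 lower with siPRMT5, beside 20.6% and 21.9%. With siHP1γ 21 were higher and 15 lower in Eth, beside 16.5% and 15.2% of all genes. In Dex 9 were higher and 13 lower with siHP1γ, beside 11.7% and 12.3%. AK4, a mitochondrial adenylate kinase and HIF target, was lower with both siRNAs, at log2 fold changes of -2.16 and -2.19 with siPRMT5 and -1.08 and -0.92 with siHP1γ. ERO1A, an oxidase of the endoplasmic reticulum, was lowered most by siHP1γ (-1.89 in Eth, adjusted p = 1.74e-11, and -1.53 in Dex, adjusted p = 6.03e-10), followed by FBP1, which runs the phosphofructokinase step backwards (-1.24 and -1.32). STC2 and PDK4 were the most raised by siHP1γ (1.89 and 1.56, and 0.80 and 0.71), both at few counts. In siNS Eth, STC2 was at 1.44, 1.32 and 0.829 CPM and PDK4 at 3.31, 1.94 and 1.97. With siPRMT5, ANGPTL4 was the most raised in Eth, at few counts. It was at 0.883, 0.815 and 0.518 CPM in siNS Eth and 1.93, 1.996 and 2.3 in siPRMT5 Eth. PDK4 was the most raised in Dex, followed by ANGPTL4. PDK4 was at 4.86, 3.16 and 3.9 CPM in siNS Dex and 11.14, 11.02 and 11.2 in siPRMT5 Dex. In siHP1γ Dex it was at 7.32, 4.595 and 7.71 CPM. PGM2L1 (1.17 and 0.83) and the histone demethylase gene KDM3A, a HIF target (0.93 in Eth), were raised by less. PCK2, the mitochondrial form of an enzyme of glucose synthesis, was lowered (-0.70 and -0.70). HKDC1 in Eth and STC2 in Dex, both at few counts, were lowered more than PCK2 and less than AK4.

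With Dex, 5 of these 75 genes rose in siNS cells, 3 rose and 1 fell in siHP1γ cells, and 6 rose and 3 fell in siPRMT5 cells. Of all genes 1.65% rose and 1.06% fell in siNS cells, 1.01% and 0.660% in siHP1γ cells, and 2.69% and 2.75% in siPRMT5 cells. TXNIP, which curbs glucose uptake, rose in all 3 (1.54, 1.21 and 1.78), as did ANGPTL4 (3.14, 2.88 and 2.53). The response in siPRMT5 cells differed from that in siNS cells for 3 of the 75, a share near the 3.80% of all genes, and these were VEGFA (-0.56, adjusted p = 0.00148), P4HA2 (-0.61, adjusted p = 0.00567) and BHLHE40 (-0.48, adjusted p = 0.00854). In siHP1γ cells the response of DDIT4, an inhibitor of mTOR signalling, was the 1 of 75 that differed (-0.73, adjusted p = 0.00404), beside 0.399% of all genes. The genes of this paragraph were chosen after their values were seen.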

How the data were processed

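RNA was sequenced from 18 libraries of MDA-MB-231 cells with Lexogen kits on a NextSeq500. The authors mapped reads on hg38 with Bowtie2 2.4.2 and made the deposited raw counts per gene symbol with htseq-count 0.9.1, one library per file. The strand setting and gene annotation are not given in the sources used here, so overlapping, antisense and pseudogene counts cannot be separated. A deposited table of the authors' own DESeq2 (2.11.40.7) fold changes and adjusted p-values was not used. The 40 genes, the 76 further genes and the tests were chosen with earlier results of these data known.

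Counts of all symbols were scaled by TMM and filtered by edgeR's filterByExpr over the 6 conditions. One model with 6 condition means (15298 genes, 12 residual degrees of freedom) was fitted with edgeR 4.0.16 (glmQLFit and glmQLFTest, R 4.3.3), and 11 comparisons were taken from it, each two-sided with Benjamini-Hochberg adjustment. Dex responses had to change by 1.5-fold or more with an adjusted p under 0.01, and depletions and interactions at an adjusted p under 0.05. Replicates are biological and differed by more than sampling noise (chi-square per degree of freedom 2.10 to 12.3 over 18 pairs).

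Every library's value was given for genes among the 4 largest called increases or 4 largest called decreases of a Dex or depletion comparison and for PFKFB3, PFKFB4, SLC2A1, SLC2A3, HK2, LDHA, PGK1, CA9, ADM, NDRG1, HIF1A and EGLN3, and of the further genes the 3 largest increases and decreases per depletion comparison could be named. Levels per kilobase used the union of exons in GENCODE 44. The script was tested on simulated data: for siPRMT5 against siNS with Dex, on 15058 genes, 81 of 100 genes changed by log2 1 and 86 of 100 changed by log2 1.5 were recovered, and 6.7% of calls were false. Alternatives were DESeq2 1.42.0, its size factors in edgeR, library size alone, other count filters, other Dex thresholds, a replicate block, a fit of the compared conditions only, leaving out each library and, chosen after seeing the data, pseudogene counts added to the gene.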

Additional observations from a re-analysis of the deposited data

Results flagged for a closer look

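The following 6 genes stood out because their Dex response in siPRMT5 cells differed from that in siNS cells by the interaction test of edgeR (adjusted p under 0.05). The difference in log2 fold change, siPRMT5 minus siNS, was -1.01 for EGLN3, -0.77 for PFKFB4, -0.77 for NDRG1, -0.50 for ENO2 and -0.44 for PFKFB3. For ADM it was 0.64, and here the Dex libraries lay below the Eth libraries in siNS cells and above them in siPRMT5 cells. The same test passed 3.80% of all genes.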

How the results depend on the processing

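No call turned its direction: of 133 calls of a gene in a comparison, 99 held in the 18 fits without 1 library and the 8 other settings that kept the thresholds, and 34 were lost in at least 1 of these, and 9 log2 changes moved by over 1.5 times. The number of Dex calls followed the threshold. A fold limit of 2 left 0 genes in siNS cells and 1 in siPRMT5 cells, and an adjusted p under 0.05 with no fold limit gave 10 in siNS, 4 in siHP1γ and 15 in siPRMT5 cells. For the interaction of siHP1γ with Dex, DESeq2 gave 2 genes, no filter on low counts 1 and the replicate block 1, in place of 0. For the interaction of siPRMT5 with Dex, no filter gave 10 in place of 6, DESeq2 8 and the replicate block 7. Leaving out 1 library at a time gave 0 to 1 genes for Dex in siNS cells (0 without siNS Eth replicate 3 or siNS Dex replicate 3), 0 in siHP1γ and 6 to 7 in siPRMT5 cells. It gave 10 to 14 (Eth) and 11 to 18 (Dex) for siHP1γ against siNS, 20 to 22 and 19 to 25 for siPRMT5 against siNS, and 20 to 25 and 22 to 25 for siPRMT5 against siHP1γ. The interactions ranged from 0 to 1 (siHP1γ) and from 4, without siPRMT5 Dex replicate 2, to 10, without siHP1γ Dex replicate 1 (siPRMT5). The cause of these shifts was not tested. Of 45 pairs of same-numbered libraries 6 had deviations that correlated above 0.1 (range -0.19 to 0.31). Libraries with different numbers were not compared in this way, so whether replicate numbers pair the samples is not known. The replicate block is given only as a count. With 3 libraries per condition small changes are hard to call, and SLC16A1, CA9 and ANKRD37, at a few CPM or less, rest on few counts.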
